A study of Phalaenopsis aphrodite with 54 samples.

Results

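Pollinia, the compact masses into which an orchid packs its pollen grains, were compared with the column, the organ that carries them at its tip. Both came from flowers of a tetraploid *Phalaenopsis* hybrid called V3, for which the labels name no treatment. The methods state that the plants were mature and that the arrays of floral organs were repeats from 2 collections of samples. Pollinia were measured on 2 arrays and columns on 2 arrays, which are 4 of the 54 arrays of the series and 4 of the 41 arrays whose RNA had been amplified before labelling. These 4 arrays were chosen by the tissue named in their labels. Sepals, petals, lips and pedicels of V3 (2 arrays each), V3 buds and flowers, and V3 flowers collected 1, 3, 8 and 15 d after pollination serve as background. The remaining amplified arrays came from leaves, roots, stalks, young and older inflorescences, buds and flowers of *P. aphrodite*. They were normalized and fitted together with those of V3. The array carried probes for 43662 contigs, which are transcripts assembled from sequence reads of *P. aphrodite*, so that RNA of a hybrid was read with probes made for another genotype. The sources used here do not give the stage of these flowers or how many plants or flowers entered a sample. Whether the cap that covers the pollinia was removed is not given either.

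In a flowering plant the pollen grain carries the male gametophyte, which stores RNA for germination and tube growth. The orchid column is a fusion of style, stigma and stamen tissue. Floral organ identity in *Arabidopsis* is set by combinations of MADS box transcription factors: class A genes for the outer organs, class B genes for petals and stamens, class C genes for stamens and carpels, class D genes for ovules, and class E genes as partners of all the others. A separate branch of the family, the Mδ type, works in maturing pollen of *Arabidopsis*.

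The 75th percentile of the raw intensities was 2459 and 2335 on the pollinia arrays, against 3774 and 3408 on the column arrays, with 4173 to 5847 on those of sepals, petals, lips and pedicels. Pollinia arrays had 71.2% and 73.4% of their spots well above background by the scanner software, against 76.2% and 75.7% on column arrays. No spot was saturated on any of the 4 arrays. The arrays of 1 organ differed by little more than the replicate spots of a single array: the median difference between arrays was 1.08 times that between spots for pollinia and 1.25 times for columns. The p-values below take their spread from arrays of the same condition over all 41 amplified arrays in 20 conditions, not from these 4 alone. Over those conditions the same ratio ran from 1.01 to 2.87. The p-values measure only that spread between arrays, which may be largely technical. With 2 arrays against 2, an exact permutation test of a single contig cannot give a two-sided p below 0.333. Scan batch 3 held the first array of each organ and scan batch 4 the second, so every difference could also be read within a batch. All 4 arrays lay on different slides, so that slide and organ cannot be told apart. In whole organs, fewer cells of a type and less RNA per cell cannot be told apart.

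Pollinia and columns differed in a large share of their transcripts. A contig was tested where its probe was well above background on both arrays of pollinia or of columns, and called at an adjusted p under 0.05 in limma with a difference over 4-fold. Of 32895 contigs tested, 13236 were called (40.2%), 6806 higher in pollinia (20.7%) and 6430 lower (19.5%). The difference exceeded 16-fold for 2700 contigs higher and 2279 lower in pollinia. Without the fold threshold, 30173 contigs passed the adjusted p (91.7%), so that this p alone separates few contigs from the rest. Within scan batch 3, 6810 contigs were over 4-fold higher and 6461 over 4-fold lower in pollinia, and within scan batch 4 the counts were 6917 and 6450. In each batch 13235 of the 13236 called contigs had the direction of their call. The calls came from these same arrays and needed over 4-fold, so this agreement is no separate check.

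The balance between the directions depended on how arrays were scaled. Called contigs were higher in pollinia in 51.4% of cases after quantile normalization, in 63.3% with 8690 higher and 5041 lower when arrays were set to a common median, in 39.2% with 5337 higher and 8281 lower without scaling, and in 20.2% with 3287 higher and 12978 lower when arrays were set to their spike-in controls. The median difference over the tested contigs was −0.04 on the log2 scale after quantile normalization, 0.61 with a common median, 0.18 with a common 75th percentile, −0.40 without scaling and −1.36 with the spike-in controls. The spike-in controls themselves averaged 14.01 and 13.93 on the log2 scale on the pollinia arrays, against 13.06 and 12.96 on the column arrays, while arrays from other organs spanned 12.82 to 15.57. Every difference below is therefore relative to the bulk of the transcripts of each organ, not an amount per cell.

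**Figure D1:**
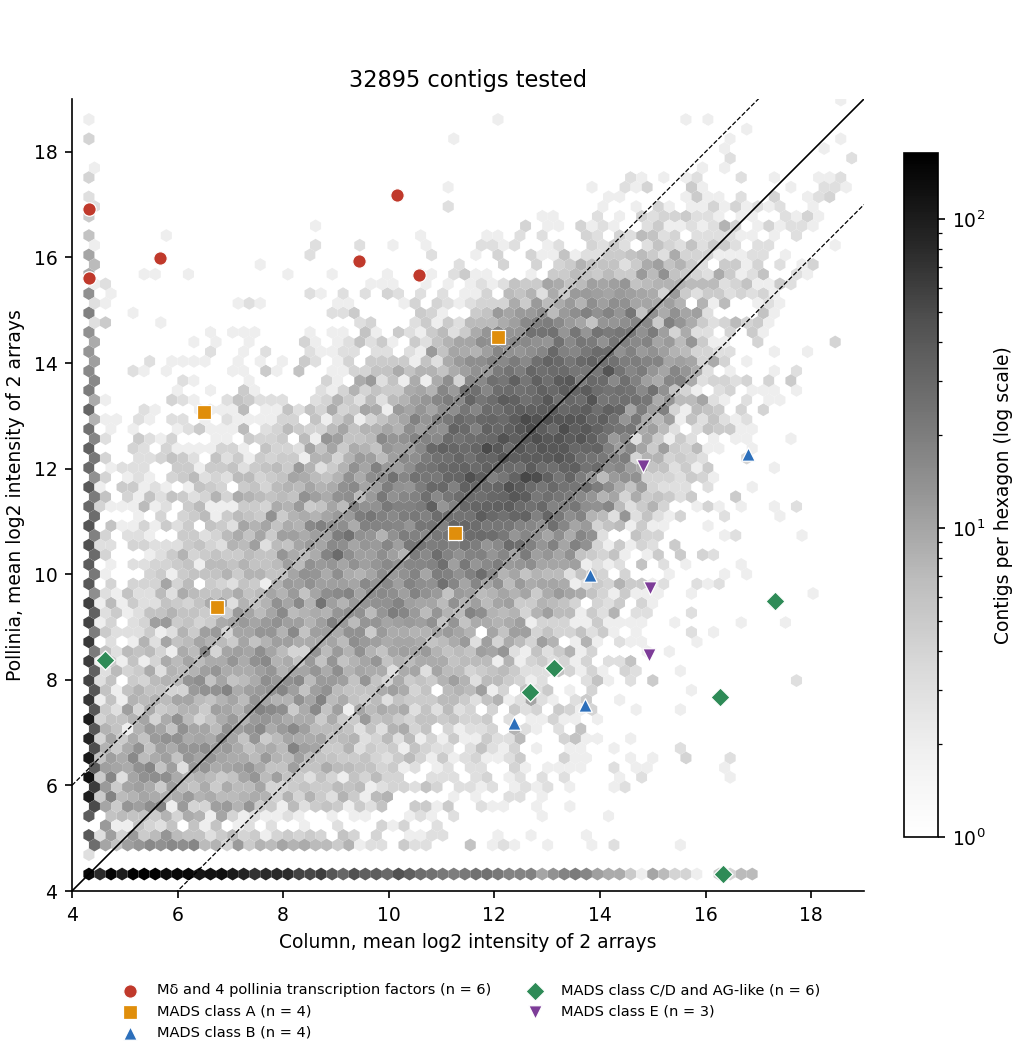
Mean log2 intensity in pollinia (vertical axis, 2 arrays) against the column (horizontal axis, 2 arrays) for the 32895 contigs tested, as hexagons shaded by the number of contigs on a log scale. The solid line marks equal levels and the dashed lines 4-fold differences; coloured points are named contigs, and the class B and class E contigs all lie below the lower dashed line.

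Pollinia had far more contigs called against the other organs than the column did. The 5 pairs of organs that include pollinia had between 12712 and 13404 contigs called (39.7% to 41.2% of those tested), while the 10 pairs without pollinia had between 692 and 3762 (2.24% to 11.8%). Against the mean of sepal, petal, lip and pedicel, 12824 contigs were called in pollinia (37.8%), 6657 of them higher (19.6%) and 6167 lower (18.2%). Against the same mean, 1874 were called in the column (5.65%), 738 higher (2.23%) and 1136 lower (3.43%). Both comparisons share the arrays of those 4 organs, and the pairs share arrays with each other. With spike-in scaling, pollinia had 14822 and the column 1798 calls against that mean, while a pair without pollinia reached 26346 calls, above the count of pollinia against the column.

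**Figure D2:**
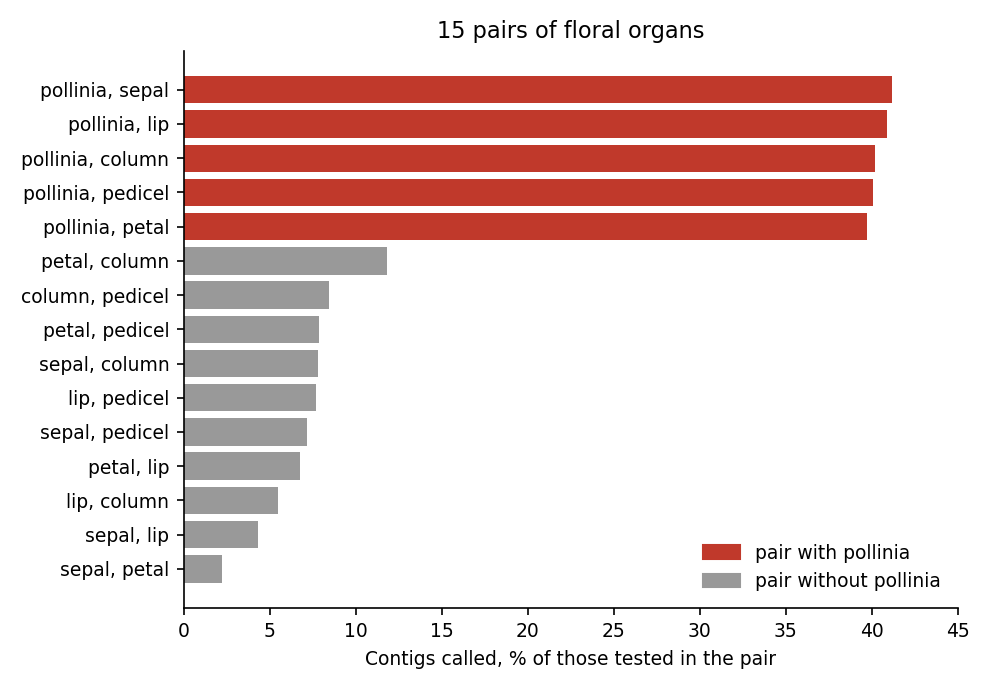
Percentage of tested contigs called in each of the 15 pairs of V3 floral organs, at an adjusted p under 0.05 and over 4-fold. The 5 pairs with pollinia (red) lie between 39.7% and 41.2% and the 10 pairs without pollinia (grey) between 2.24% and 11.8%.

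Many transcripts were above background in 1 of the organs only. Of all contigs on the array, 27029 were well above background on all 4 arrays, 1750 on both pollinia arrays and no column array, and 2793 on both column arrays and no pollinia array. The called contigs include 1419 that were higher in pollinia with no column array above background and 1543 that were lower in pollinia with no pollinia array above background. Both sets were followed in the other organs. Of the 1419, 462 (32.6%) were above background on no array of the other 4 organs and 100 (7.05%) on all of them. Only 36 (2.54%) were above background on no array of any other amplified condition. Of the 1543, 12 (0.778%) were on no array of the other organs and 1182 (76.6%) on all of them. Across tissues, 823 of the 1543 (53.3%) were above background on all arrays of every other amplified condition, leaves and roots of *P. aphrodite* included. Organ by organ, both arrays were above background for 93.7% of the 1543 in sepals, 79.1% in petals, 94.6% in lips and 97.5% in pedicels. Among all contigs tested these shares were 90.32%, 87.19%, 91.33% and 94.57%, so this detection was not particular to the 1543. For the 1419 they were 18.7%, 17.3%, 16.5% and 40.8%. Joint counts over several conditions were not made for all contigs tested.

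The labels were checked with 6 transcription factor contigs that the study lists for pollinia and 5 AGAMOUS-like contigs that it lists for the column and pedicel. The study chose both lists on these samples, so they check only that the arrays carry the organ they are labelled with. The intensities of the pollinia list summed to 461400 and 436200 on the pollinia arrays, against 2138 and 1973 on the column arrays, where 2 of the 6 were above background on no array. Those of the column list summed to 446 and 478 on the pollinia arrays, against 215900 and 211200 on the column arrays. No virus probe had both of its spots above background on any of the 4 arrays.

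Among the MADS box contigs that the study names, 21 had a probe and were tested, and 6 were called higher in pollinia and 13 lower, beside 20.7% and 19.5% of all contigs tested. With spike-in scaling 3 were called higher and 14 lower, and 3 higher and 6 lower were called by both probes of a contig. The median log2 difference of the 21 was −4.53, against −0.04 over all contigs tested. PaAP3-1, a class B contig, had no probe. Since the study chose these contigs on the same arrays, their directions are descriptions and not independent evidence. Of the 19 called contigs, 9 had a second probe with the same call, 8 had a single probe, and 2 had a second probe with the opposite call.

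**Figure D3:**
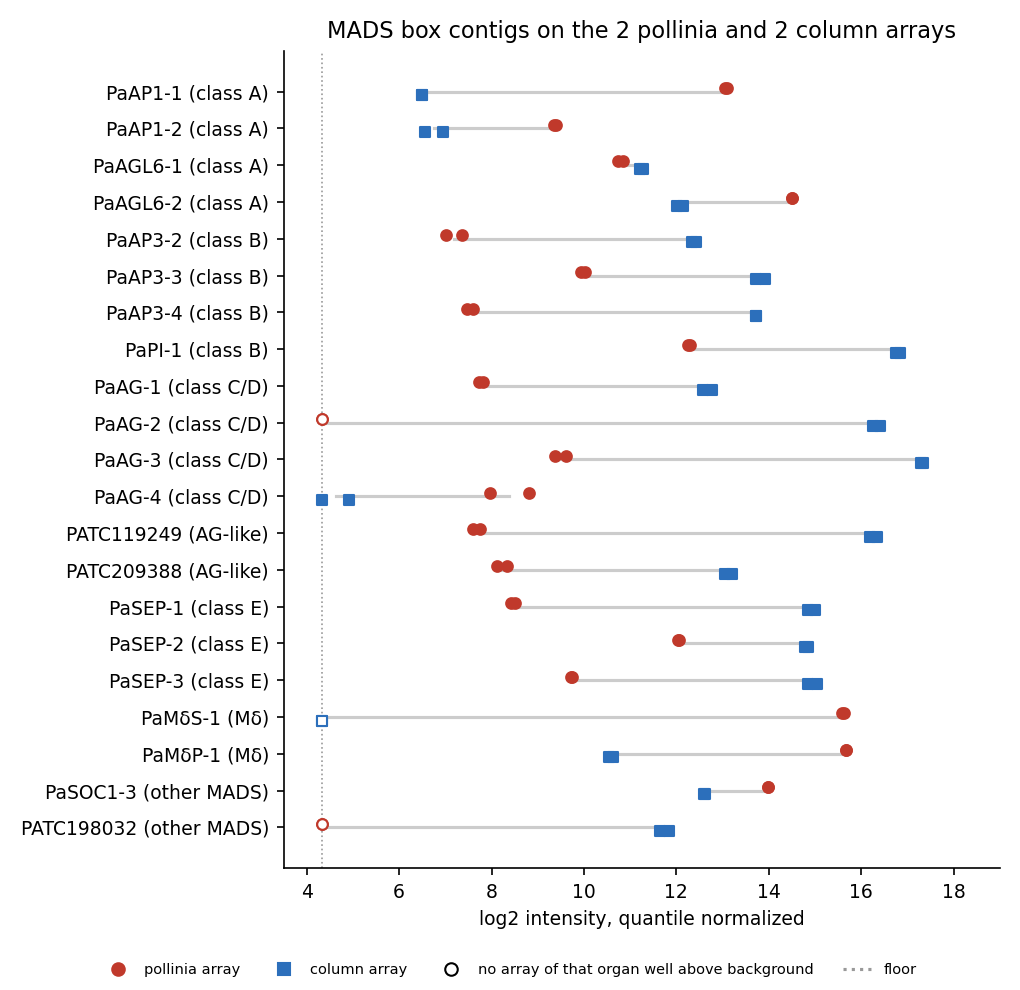
Log2 intensity of 21 MADS box contigs on each pollinia array (red circles) and each column array (blue squares), with grey bars joining the means of the organs; open symbols mark an organ with no array well above background and the dotted line the floor of 20. The arrays of an organ lie close together for most contigs, but PaAG-4 reads 8.80 and 7.97 in pollinia and 4.92 and 4.32 in the column.

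All 4 class B contigs with a probe were lower in pollinia. PaPI-1 (PATC152852), the PISTILLATA homolog and obligate partner of the AP3 proteins in *Arabidopsis*, read 12.26 and 12.29 on the log2 scale in pollinia, against 16.75 and 16.85 in the column. Its log2 difference was −4.53 ± 0.04 (SE; adjusted p = 1.07e-30, limma), a 23.1-fold lower signal, and it was still well above background in pollinia. PaAP3-4 (PATC154853) read 7.60 and 7.46 in pollinia, against 13.72 and 13.73 in the column, a log2 difference of −6.19 ± 0.10 (adjusted p = 3.48e-25). PaAP3-2 (PATC133864) fell by 5.20 and PaAP3-3 (PATC138350) fell by 3.84 on the log2 scale. In sepals PaAP3-3 and PaAP3-4 were lower still, at 6.41 and 4.79.

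The AGAMOUS-like contigs split. AGAMOUS is the class C gene of *Arabidopsis* and acts in stamens as well as carpels. PaAG-2 (PATC138585) was not well above background on either pollinia array, where both arrays stood at the floor of 4.32, against 16.26 and 16.40 in the column, at least 4118-fold higher there (adjusted p = 1.96e-30). Such a bound sets the bright organ against the dimmest signal scored as well above background on each array of the dim organ, or its own value where that is higher. PaAG-3 (PATC155109) read 9.38 and 9.62 in pollinia, against 17.31 and 17.34 in the column, a log2 difference of −7.82 ± 0.08. PATC119249 fell by 8.60, PaAG-1 (PATC052371) by 4.91 and PATC209388 by 4.90. The last pair followed each other over the 20 amplified conditions with a Pearson r of 0.997, and contigs of near-identical sequence could not be separated here.

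PaAG-4 (PATC202120), placed by the study next to SEEDSTICK, a class D gene of ovules, ran the other way. It read 8.80 and 7.97 in pollinia, against 4.92 and 4.32 in the column, called higher in pollinia (adjusted p = 1.70e-13). Its arrays did not overlap, but the pollinia arrays differed by more than those of most named contigs and 1 column array was at the floor, which sets the size of its difference. Its level was higher in pedicels, the organ that includes the ovary, at 11.30. With spike-in scaling its difference was 1.41 with an adjusted p of 0.0664.

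All 3 class E contigs were lower in pollinia by both of their probes. PaSEP-1 (PATC138540) read 8.42 and 8.51 in pollinia, against 14.85 and 15.00 in the column, a log2 difference of −6.46 ± 0.07 (adjusted p = 3.19e-28). PaSEP-3 (PATC152066) fell by 5.21, to 9.72 and 9.74 in pollinia, against 14.85 and 15.04 in the column. PaSEP-2 (PATC141808) differed least, by −2.76 ± 0.04, with 12.06 and 12.04 in pollinia against 14.84 and 14.79 in the column. In the other 4 organs the SEPALLATA contigs stood at or above 13.26, so that the low levels were found in pollinia among the 6 organs.

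Class A contigs did not move together. PaAGL6-2 (PATC138772) was higher in pollinia, at 14.50 and 14.50, against 12.02 and 12.14 in the column, a log2 difference of 2.42 ± 0.11 (adjusted p = 2.81e-16), and its second probe gave 2.65. The column was the lowest of the 6 organs for PaAGL6-2, and pedicels were the highest, at 16.47. PaAGL6-1 (PATC154379), which the arrays show at its highest in the lip, read 10.73 and 10.85 in pollinia, against 11.22 and 11.28 in the column, and was not called at −0.46 ± 0.16. The spike-in scaling turned this into a call at −2.47 and took away that of PaAGL6-2, which then differed by 1.68.

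The APETALA1 homologs gave a different answer with each probe. For PaAP1-1 (PATC145405) the brighter probe, which was used, read 13.06 and 13.09 in pollinia, against 6.50 and 6.50 in the column, a log2 difference of 6.57 ± 0.06 (adjusted p = 2.09e-29). The other probe was above background on no pollinia array and read 7.89 and 7.92 in the column, a call in the opposite direction. For PaAP1-2 (PATC154931) the probe used read 9.40 and 9.36 in pollinia, against 6.55 and 6.95 in the column (log2 difference 2.63 ± 0.10), while the other was above background on no pollinia array and read 7.03 and 7.06 in the column. Such conflict was rare. Of 20871 contigs with 2 probes tested, 92.8% had the same sign with both, and of 7951 called contigs among them 89.5% were called with both probes in the same direction and 22 (0.277%) in opposite directions. Probe sequences were not used here, so which transcript each probe reads is not known. No direction is given for the APETALA1 homologs, although both count among the 6 MADS box contigs called higher. The paper, which also used RT-PCR, places PaAP1-1 mainly in pollinia and pedicels and PaAP1-2 in pedicels. In pedicels the probes used here read 12.32 for PaAP1-1 and 12.87 for PaAP1-2.

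Both Mδ contigs were higher in pollinia by both probes. PaMδS-1 (PATC138798) read 15.59 and 15.64 in pollinia and stood at the floor, above background on no array, in the column, at least 2505-fold lower there (adjusted p = 2.08e-38). It was above background on no array of any other floral organ either. PaMδP-1 (PATC132082) read 15.67 and 15.68 in pollinia, against 10.53 and 10.63 in the column, a log2 difference of 5.10 ± 0.04 (adjusted p = 1.02e-30). Unlike PaMδS-1, it was measured in every organ, between 10.58 and 11.06 outside pollinia. Of the remaining MADS box contigs, PATC198032 was above background on no pollinia array and read 11.85 and 11.64 in the column, at least 171-fold higher there. PaSOC1-3 (PATC154491), whose *Arabidopsis* counterpart promotes flowering, was 1.37 ± 0.05 higher on the log2 scale in pollinia and not called; a common median made it a call at 2.42.

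Transcription factors of other families showed the same extremes. All 4 that the study lists for pollinia were called higher by both probes. Of 5 that it lists for other organs, 2 were called lower and 3 were not called. Over all contigs tested, 20.7% were called higher and 19.5% lower. The study chose these factors for their patterns in these organs, so their directions are descriptions and not independent evidence. PaAP2-7 (PATC138345), of the AP2/ERF family, read 16.89 and 16.93 in pollinia and was above background on no array of the column or of any other floral organ, at least 6166-fold over the column (adjusted p = 5.52e-24). PaMYB-2 (PATC152106) read 15.98 and 15.98 in pollinia, against 5.52 and 5.81 in the column, a log2 difference of 10.31 ± 0.09. The column was the lowest floral organ for PaMYB-2, and petals came next after pollinia, at 9.74. PabZIP-2 (PATC134262) read 17.18 and 17.18 in pollinia, against 10.17 and 10.16 in the column, a log2 difference of 7.02 ± 0.06. PabHLH-3 (PATC140443) differed by 6.49 ± 0.04 with the brighter probe and by 3.94 with the other, so its fold depends on the probe while its direction does not.

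PaMYB-4 (PATC150065) and PabHLH-1 (PATC135043) were above background on no pollinia array. PaMYB-4 read 16.89 and 16.78 in the column, at least 5855-fold higher there (adjusted p = 8.89e-35), and PabHLH-1 read 13.85 and 13.77, at least 720-fold higher (adjusted p = 2.64e-34). In the other 4 organs PabHLH-1 stood at 14.34 or above and PaMYB-4 at 16.30 or above, so that pollinia were the organ without them. PaAP2-5 (PATC133172), PabZIP-3 (PATC136849) and PaNAC-3 (PATC138298) were higher in pollinia by 0.71, 1.33 and 1.62 on the log2 scale, under the fold threshold. Spike-in scaling reversed all 3 to −1.24, −0.33 and −0.21. The paper describes them as high in every floral organ except pollinia. PaAP2-5 read 10.72 in pollinia and 12.41 to 15.14 in the other 4 organs, PaNAC-3 10.90 and 11.42 to 14.68, with the column lowest for both. PabZIP-3 read 12.01 in pollinia, 14.74 in sepals, 14.06 in petals, 11.86 in lips and 9.19 in pedicels.

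The pair of KNOX homeobox contigs, a family that keeps shoot meristems undifferentiated, differed in direction. PATC145786 read 5.85 and 5.39 in pollinia, against 9.41 and 9.45 in the column, a log2 difference of −3.81 ± 0.11 (adjusted p = 5.89e-20). PATC127065 read 7.64 and 7.49 in pollinia and was above background on no column array, at least 9.45-fold lower there (adjusted p = 5.87e-14), a call that was lost without scaling (log2 difference 1.70), with spike-in scaling (0.74) and with normexp background correction (1.96). Among the 6 floral organs both were highest in pedicels, at 14.48 and 12.46.

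Enzymes and other contigs that the study names for petals and lips were 10, of which 8 were tested, 2 called higher and 3 lower in pollinia, beside 20.7% and 19.5% of all contigs tested. The higher ones both encode tyrosine decarboxylase, which makes tyramine from tyrosine. PATC138942 read 14.50 and 14.52 in pollinia, against 8.88 and 8.92 in the column, a log2 difference of 5.61 ± 0.09 (adjusted p = 5.19e-25), and PATC149447 differed by 5.98 ± 0.09. In the other floral organs PATC138942 reached at most 9.24 and PATC149447 at most 8.48. PATC156804, a phenylalanine ammonia-lyase contig of the entry step into phenylpropanoids, was lower in pollinia, at 11.58 and 11.57, against 16.52 and 16.59 in the column (log2 difference −4.98 ± 0.05). PaZF (PATC129930), a zinc finger contig, was above background on no pollinia array and at least 149-fold higher in the column. PATC196836, an acyltransferase contig, was likewise above background only in the column of this pair, at least 14-fold higher there, a call lost with a common median and with normexp correction, while the other acyltransferase contig PATC134853 and the receptor kinase contig PATC139333 were 0.71 and 1.00 lower on the log2 scale in pollinia and not called. Spike-in scaling made both calls, at −2.27 for PATC134853 and −2.99 for PATC139333, and PATC139333 was also called without scaling, at −2.03. PATC147735, named an anther-specific proline-rich protein, was above background on no pollinia array and near the floor in the column, at 4.32 and 5.34, against 15.40 in sepals and 15.58 in petals. PaMTN3 and the zinc finger contig PATC149247 were above background on none of the 4 arrays.

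The contigs that served the study as internal controls of its qPCR moved little but not equally. Actin (PATC135993) read 12.79 and 12.80 in pollinia, against 12.99 and 13.07 in the column, a log2 difference of −0.23 ± 0.07. Ubiquitin (PATC150470) read 15.34 and 15.33 in pollinia, against 16.68 and 16.55 in the column, a log2 difference of −1.28 ± 0.10. Neither passed the fold threshold, and a common median across arrays turned them to 0.34 and 0.20.

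The largest differences lay in contigs without a name in the files. PATC134337 read 18.53 and 18.55 in pollinia and was above background on no array of the column, at least 19063-fold lower there, and PATC133027 and PATC154132 had bounds of at least 18507-fold and 16678-fold. Among contigs measured on all 4 arrays, PATC155914 led, with 18.16 and 18.19 in pollinia against 5.30 and 5.04 in the column, 8193-fold higher (SE of the log2 difference 0.07). PATC154431 read 17.28 and 17.26 in pollinia, against 5.00 and 4.32 in the column, and PATC157294 read 17.16 and 17.14 in pollinia, against 4.32 and 5.43 in the column. Each had 1 column array at the floor, which sets the size of its difference, so no fold is given. In the opposite direction PATC140673 read 5.91 and 5.28 in pollinia, against 18.08 and 17.55 in the column, a log2 difference of −12.22 ± 0.14. PATC140673 stood at 16.98 or above in the other 4 organs and in leaves and roots of *P. aphrodite*, so its low level was that of pollinia. PATC138068 and PATC144408 differed by −11.67 and −10.68.

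The largest bounds in the lower direction, of at least 6339-fold, 6312-fold and 6161-fold, belonged to PATC154219, PATC155131 and PATC145298. Over the 20 amplified conditions each had a Pearson r of at least 0.9997 with PaMYB-4, all 4 being at the floor in pollinia and in small buds and between 16.30 and 16.96 in the other 5 organs. Whether these contigs are pieces or copies of 1 transcript was not tested, since no sequence was at hand, so they may count 1 gene several times.

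**Figure D4:**
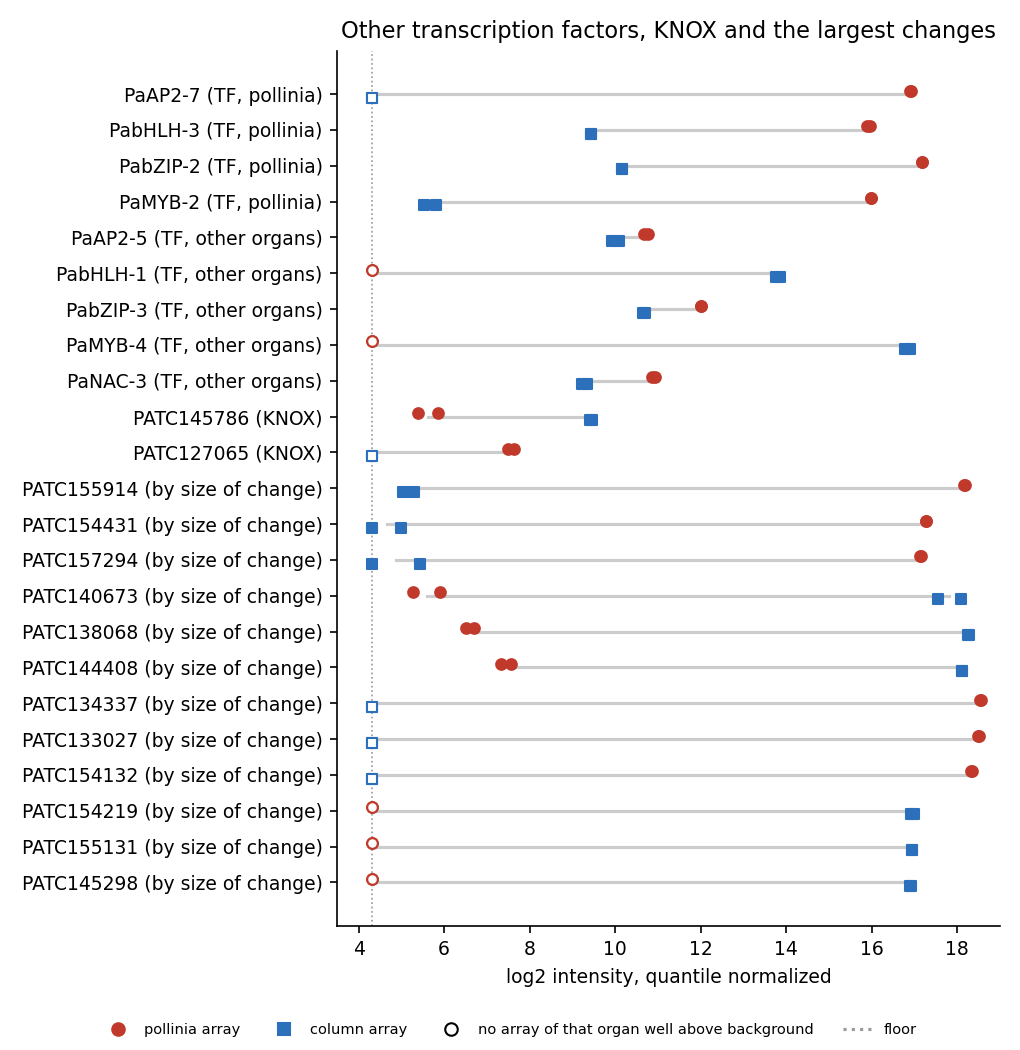
Log2 intensity of 9 transcription factors of other families, 2 KNOX contigs and the 12 contigs chosen for the size of their change, on each pollinia array (red circles) and each column array (blue squares); grey bars join the means, open symbols mark an organ with no array well above background, and the dotted line is the floor of 20. PATC134337 reaches 18.54 in pollinia and PATC154219 16.95 in the column, each with the other organ at the floor.

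Arrays that the comparison did not use show where the called contigs were seen at other stages. The 6806 contigs called higher in pollinia had a median log2 level of 11.84 in pollinia and 7.17 in the column. It was 8.43 in V3 small buds, 8.45 in large buds and 7.43 in open flowers, and then 7.65, 8.07, 8.25 and 8.52 on days 1, 3, 8 and 15 after pollination. The median of all contigs tested stayed between 10.81 and 10.95 over the same samples, where quantile normalization holds it nearly level by design. Arrays of a stage lay close together, with medians of the higher set of 8.06 and 8.07 at day 3. The 6430 contigs called lower had a median of 7.74 in pollinia, 12.15 in the column and between 11.81 and 12.07 at these stages. Of the 1419 contigs higher in pollinia with no column array above background, both arrays were above background for 57.3% in small buds, 55.5% in large buds, 26.6% in open flowers, and 33.3%, 49.6%, 67.9% and 63.5% on days 1, 3, 8 and 15. Among all contigs tested these shares were 93.55%, 92.26% and 87.2%, and 90.05%, 92.35%, 96.13% and 91.89%. In *P. aphrodite* the higher set had a median of 7.62 in leaves, 8.01 in roots, 7.80 in stalks, 8.10 in young and 8.27 in older inflorescences. It was 8.55 in buds and 7.52 in flowers. In the same order, all arrays of a tissue were above background for 25.7%, 42%, 37.8%, 49%, 62.5%, 59.3% and 33.6% of the 1419. Over all contigs tested these were 84.83%, 87.58%, 86.41%, 89.76%, 94.42%, 90.11% and 89.61%. Like levels thus also occurred outside pollinated flowers.

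**Figure D5:**
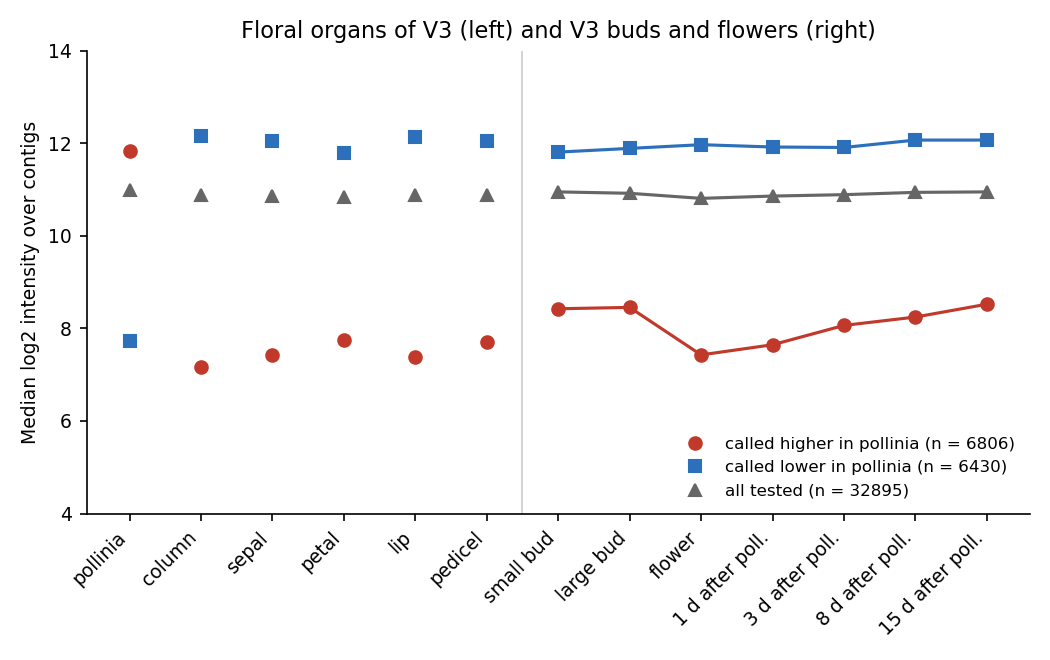
Median log2 intensity over the 6806 contigs called higher in pollinia (red circles), the 6430 called lower (blue squares) and all 32895 tested (grey triangles), in the 6 floral organs (left) and in V3 buds, open flowers and flowers after pollination (right). The red points of the stages run from 8.43 in small buds to 7.43 in open flowers and 8.52 at day 15. The grey points of the stages stay between 10.81 and 10.95, held nearly level by quantile normalization.

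Single regulators had their own courses. PaMδS-1 was above background on no array of small buds, and read 7.60 in large buds, 5.63 in open flowers and 8.08, 10.65 and 14.41 on days 1, 3 and 15 after pollination, with 12.97 and 13.03 on the arrays of day 8. PaAP2-7 read 12.89 in large buds, 7.59 in open flowers and between 9.49 and 11.01 after pollination. PaMYB-2 was highest of these stages in small buds, at 13.04, and PabZIP-2 in large buds, at 14.08. PaMδP-1 ran between 10.92 in open flowers and 13.17 in large buds. Values are means of 2 arrays, and differences between stages were not tested here. PATC154132 was also high in large buds, at 16.29, with 4.62 in small buds and 8.13 in open flowers. PATC134337 read 5.82 in small buds, 13.24 in large buds, 9.74 in open flowers and 14.34 at day 15.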

How the data were processed

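RNA was amplified, labelled with Cy3 and hybridised to a custom array, 1 sample per array. The authors deposited background-corrected spot intensity values from Feature Extraction 10.7.1.1, and a log2 table. The deposited log2 values equalled log2 intensity with a floor of 20 minus a constant per array, within 2.71e-06, and that constant was the 75th percentile; the methods name quantile normalization. Here intensities were floored at 20, put on the log2 scale, averaged per probe after outlier spots were removed, and quantile normalized among 41 amplified arrays. Each contig was read by its brightest probe. The 20 conditions were fitted in 1 model in limma 3.58.1 (R 4.3.3) with every array as a replicate and Benjamini-Hochberg adjustment over all contigs tested. The script was tested on simulated data. Normexp correction (offset 50) used median spot signals in place of the mean signals first planned. Named contigs are all that the study's text names, plus up to 3 per direction with the largest difference or bound that both probes call. Members and lists were chosen with earlier results of these data known. The 13 unamplified arrays were not used here. The number of arrays limits the precision.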

Additional observations from a re-analysis of the deposited data

How the results depend on the processing

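The 13236 calls stayed within 1.5 times of their number under 25 of 29 alternatives, among them the deposited log2 table, a fit of the 4 arrays alone, scan batch as a fixed term or random block, slide as a random block, and averaging of arrays that differ by no more than replicate spots. Slide as a fixed term could not be estimated. The labels give no replicate numbers to pair arrays by; the scan batch, which holds 1 array of each organ, gave 13237 calls as a fixed term. In a fit of the 4 arrays, chosen after seeing the data, it gave 12906.

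Leaving out each of the 4 arrays in turn gave 13273 to 13438 calls, 6795 to 7004 higher and 6434 to 6521 lower, with 6 MADS box contigs higher and 13 lower each time. Pollinia against the other 4 organs then had 12824 to 13058 calls, the column against them 1874 to 1980, and the pairs without pollinia at most 3762 to 3882.

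Spike-in scaling gave 3287 contigs higher and 12978 lower, 3 MADS box contigs higher, and up to 26346 calls in a pair without pollinia. Normexp correction gave 1189 calls for the column against the other organs and at most 2192 in a pair without pollinia. A raw signal filter of 500, which tests fewer contigs, gave 4394 higher, 8521 calls for pollinia and 870 for the column against the other organs, and at most 1944 in a pair without pollinia. The dimmer probe of contigs with 2 probes gave 8177 calls, 3667 of them higher, 3 MADS box contigs higher and 8 lower, 7982 calls for pollinia and 1089 for the column against the other organs, and at most 1999 in a pair without pollinia. A call by both probes was made for 7113 contigs, 3102 higher and 4011 lower, with 3 MADS box contigs higher and 6 lower. A 2-fold threshold gave 21951 calls, 11050 higher and 10901 lower, 21376 for pollinia and 6594 for the column against the other organs, and at most 11449 in a pair without pollinia. Without a fold threshold these were 30173, 14896, 15277, 31130, 25503 and 26279.

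Differences of named contigs kept direction and call in 1368 of 1413 recomputations. Directions were reversed for PaAP1-1 with its dimmer probe (−3.58), for PaAP1-2 with its dimmer probe (−2.72) and with the mean of its probes (−0.046), for PaAP2-5 without scaling (−0.28) and with spike-in scaling (−1.24), and for PabZIP-3 (−0.33) and PaNAC-3 (−0.21) with spike-in scaling. A common median reversed actin (0.34), ubiquitin (0.20) and PATC147735 (0.89), the last of which was also reversed by the 75th percentile (0.47) and the deposited table (0.47). Causes were not tested beyond the smaller number of contigs under filters and probe choices. A contig above background on no array of an organ has only a bound there, and a difference with an array at the floor of 20 has a size set by that floor.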
